A study of Drosophila melanogaster with 8 samples.

Results

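The genes described here carry only a CG number in the deposited count files and had more reads in every TBPH mutant library than in either wild-type library. A CG number is the label that the fly genome annotation gives to a predicted gene until a function or phenotype earns it a name. The members were chosen from the values themselves, as CG-number symbols with a mean of at least 20 counts per 1000000 library counts (CPM) over the 6 mutant libraries and a lowest mutant CPM at least 1.5 times the highest wild-type CPM. The rule also leaves out 16 listed CG symbols, 0 of which met both limits. The rule picked 36 genes out of 15141 symbols in the files. Among the 2934 remaining CG symbols that reached the mean, this was 1.23%. Among the 3198 other symbols that reached it, 50 met the same ratio, or 1.56%.

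TBPH encodes the fly counterpart of TDP-43, a nuclear protein that binds UG-rich RNA, acts in splicing and transcript stability, and forms aggregates in human motor neuron disease. Each library was made from the total RNA of 150 pooled heads of late pupae, aged 73 to 90 h from puparium formation, and was depleted of ribosomal RNA. At that stage the adult head is nearing completion under the control of the steroid hormone ecdysone, so many secreted and cuticle products are switched on and off within hours.

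There were 8 libraries in 4 groups of 2. The deficiency genotype carried dTDP-43Δ142 over the chromosomal deletion Df(2R)106, and the 2-deletion genotype carried dTDP-43Δ23 over dTDP-43Δ142. Both are labelled loss of function. The libraries labelled gain of function are given as act5c>dTDP-43, in which an actin 5C driver is active in most cells. For wild type the titles read Canton S, w1118 while the genotype entry reads w1118 alone. Its stock is therefore unsettled, and genetic background cannot be told apart from the mutant genotypes. Since no label ties the replicates to separate crosses, the p-values reflect library-to-library spread, possibly only technical.

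Library totals were 858067 to 1302855 counts in the mutants and 868003 and 716027 in wild type, and 3 counts corresponded to 2.3 to 4.19 CPM. TBPH itself was at 30.1 to 55.5 CPM in the mutant libraries, against 49.5 and 55.9 CPM in wild type. It was at 55.5 and 38.00 CPM in the libraries labelled gain of function, so its counts did not bear out that label. In the loss-of-function libraries it was at 47.8 and 30.1 CPM in the deficiency genotype and 40.5 and 43.8 CPM in the 2-deletion genotype, each below both wild-type libraries, with most of the wild-type level still counted. Groups are named here after their labels. The tissue label was checked with head markers. Neuronal markers (7 of 7 found) summed to 954 to 1366 CPM in the mutants and 1244 and 1274 CPM in wild type, and photoreceptor markers (11 of 11 found) to 220 to 925 CPM and to 842 and 696 CPM in wild type. Marker genes of muscle summed to 2765 to 13070 CPM in the mutants, against 14255 and 20605 CPM in wild type (7 of 7 genes found). Fat body markers summed to 21304 to 37756 CPM, against 17613 and 15258 CPM in wild type (9 of 9 found). They did not move as one: of the 5 that could be tested, 3 had positive log2 folds against wild type in loss of function, 0 were called higher by edgeR (2 at an unadjusted p of 0.05), and Fbp2 was called lower at -0.95 (edgeR adjusted p = 0.0489). Gut markers summed to 6.89 to 52.7 CPM, against 3.46 and 6.98 CPM (6 of 6 found). No gene of these lists was at 0 in all libraries, and their part in the levels below was not tested.

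The 36 genes together took 1789 to 3546 CPM in the mutant libraries, against 607 and 571 CPM in wild type. The median member was at 35.3 to 58.9 CPM in single mutant libraries and at 12.7 and 11.9 CPM in wild type. The ratio of mean mutant to mean wild-type CPM ranged from 1.81 to 57.5 with a median of 3.01, beside 1.04 over all CG symbols at the mean CPM. These values chose the members and are a description with no test. In pooled heads, more cells of a type and more RNA per cell cannot be told apart. The members fell into a steady group and a wide group, divided here after the values were seen by the highest over the lowest mutant library. For 16 members that ratio was under 2, for 10 it was at least 5, and for the other 10 it lay between. Its median was 2.18, beside 1.72 over all CG symbols at the mean CPM.

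**Figure D1:**
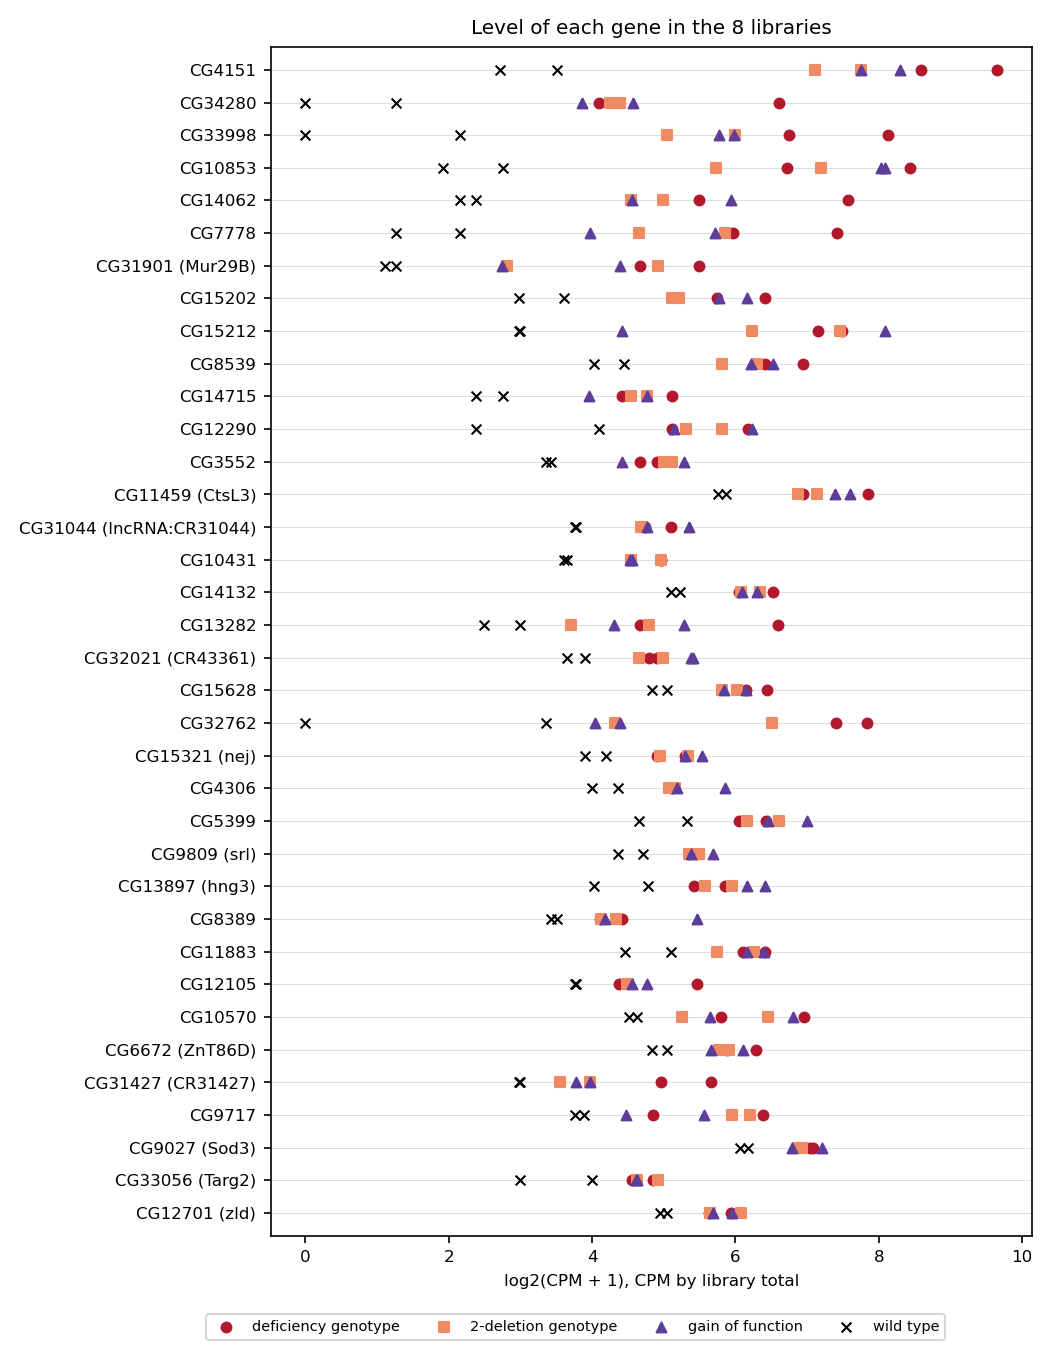
Level of each of the 36 genes as log2(CPM + 1) in the 8 libraries, ordered from the highest to the lowest ratio of lowest mutant to highest wild-type CPM; symbols mark the 4 groups, 2 libraries each. The mutant points of CG4151 lie far to the right of its wild-type points, while those of the genes at the bottom, such as CG12701 (zld), form a narrow band just above wild type, as the rule requires of every member.

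A set of 7 genes stood far above wild type, with a lowest mutant library at least 4 times the highest wild-type library, and all 7 belonged to the wide group. CG4151 was at 805 and 386 CPM in the deficiency genotype, 137 and 214 CPM in the 2-deletion genotype and 215 and 313 CPM in gain of function, against 10.4 and 5.59 CPM in wild type. Its wild-type libraries held 9 and 4 counts, and the mean over the mutants was 43.3 times that of wild type. Every mutant library was thus above 100 CPM, with the deficiency genotype on top.

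CG10853 was at 345 and 104 CPM in the deficiency genotype, 146 and 52.2 CPM in the 2-deletion genotype and 270.2 and 261 CPM in gain of function, against 5.76 and 2.79 CPM in wild type. Both gain-of-function libraries and the first deficiency library were high, and the second 2-deletion library was lowest. CG33998 was at 279.7 and 106 CPM in the deficiency genotype, 31.9 and 62.9 CPM in the 2-deletion genotype and 62.03 and 53.4 CPM in gain of function, against 3.46 and 0 CPM in wild type. With 593 counts in the mutants and 3 in wild type, the pooled ratio was 47.6, and counting error alone put it between 16.2 and 231 (exact 95% interval). An antisense transcript overlaps this gene, and its reads cannot be told apart without the strand.

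CG34280 was at 96.7 and 16.1 CPM in the deficiency genotype, 18.1 and 19.96 CPM in the 2-deletion genotype and 22.9 and 13.6 CPM in gain of function, against 0 and 1.4 CPM in wild type. It had 188 counts in the mutants and 1 in wild type, for a pooled ratio of 45.2 (exact 95% counting limits 8.02 and 1796). All mutant libraries but the first of the deficiency genotype lay between 13.6 and 22.9 CPM. An exon of CG34279 overlaps it on the same strand. CG14062 was at 190.0 and 44.1 CPM in the deficiency genotype, 22.4 and 30.7 CPM in the 2-deletion genotype and 60.4 and 22.6 CPM in gain of function, against 3.46 and 4.19 CPM in wild type, again with 1 deficiency library far above the rest. Intervals and floors here cover counting error only.

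The last pair of the 7, CG7778 and CG31901, lie next to each other on arm 2L in the Release 6 gene order. CG31901 is now named Mur29B, a mucin-related gene; mucins are heavily glycosylated proteins that coat epithelia. CG7778 was at 61.8 and 169.9 CPM in the deficiency genotype, 24.1 and 56.8 CPM in the 2-deletion genotype and 14.7 and 51.6 CPM in gain of function, against 3.46 and 1.4 CPM in wild type. CG31901 was at 24.5 and 44.1 CPM in the deficiency genotype, 6.03 and 29.2 CPM in the 2-deletion genotype and 5.71 and 19.9 CPM in gain of function, against 1.15 and 1.4 CPM in wild type. In each mutant group the library numbered 2 was the higher for both genes, and the deficiency genotype held the highest library of both. CG31901 had only 2 wild-type counts, and its pooled ratio was 16.4 (exact 95% counting limits 4.44 and 137).

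CG4151 also has a member next to it, CG32762, on the X chromosome. CG32762 was at 227 and 168 CPM in the deficiency genotype, 18.95 and 90.6 CPM in the 2-deletion genotype and 15.5 and 19.9 CPM in gain of function, against 9.22 and 0 CPM in wild type. Wild type held 8 and 0 counts. Its lowest values were those of gain of function and of the first 2-deletion library, and it had the widest spread of all members, with a highest mutant library 14.7 times the lowest.

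**Figure D2:**
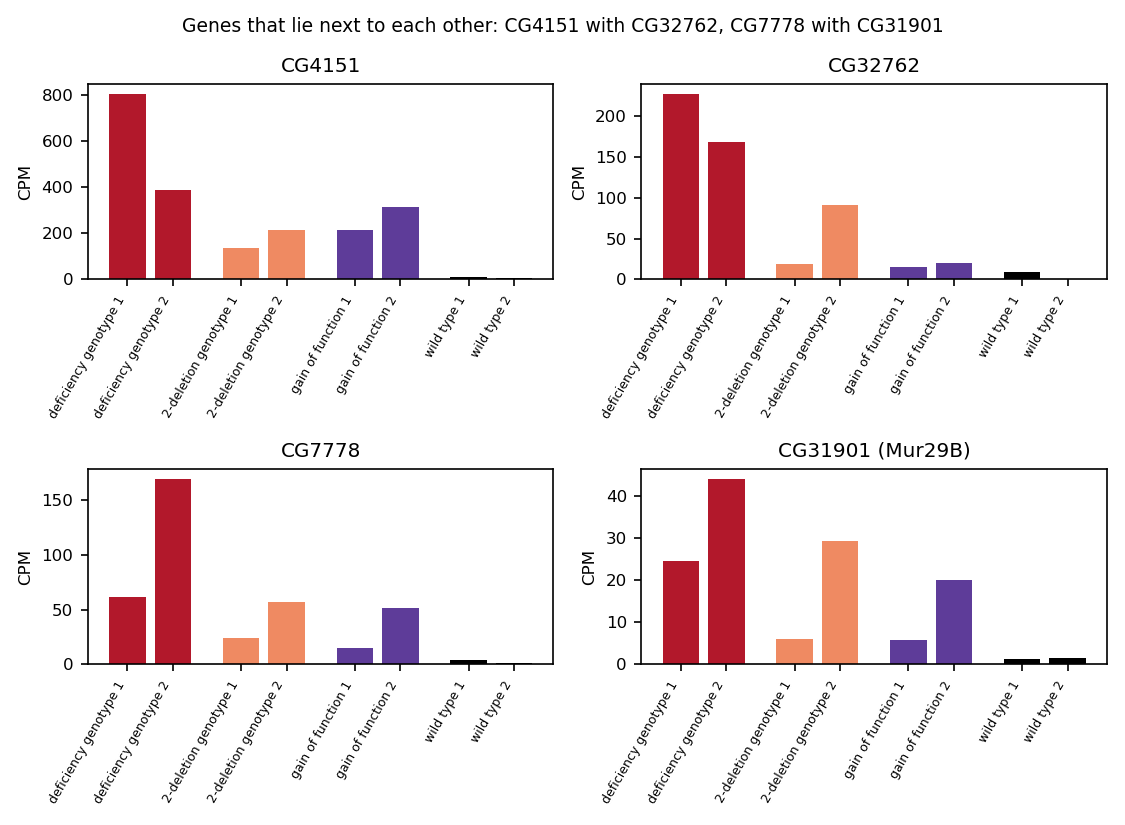
CPM of the 2 pairs of adjacent genes in each of the 8 libraries, 1 bar per library, with bars from 0. CG4151 and CG32762 share their highest library, the first of the deficiency genotype, and CG7778 and CG31901 share theirs, the second of the deficiency genotype.

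The other genes of the wide group were CG15212 and CG13282. CG15212 was at 141 and 179 CPM in the deficiency genotype, 74.1 and 176 CPM in the 2-deletion genotype and 20.4 and 272 CPM in gain of function, against 6.91 and 6.98 CPM in wild type. Its replicates disagreed most in gain of function, where 25 and 301 counts were recorded. CG13282 was at 24.5 and 95.7 CPM in the deficiency genotype, 12.1 and 26.9 CPM in the 2-deletion genotype and 18.8 and 38.00 CPM in gain of function, against 4.61 and 6.98 CPM in wild type, with the second deficiency library alone above 50 CPM.

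**Figure D3:**
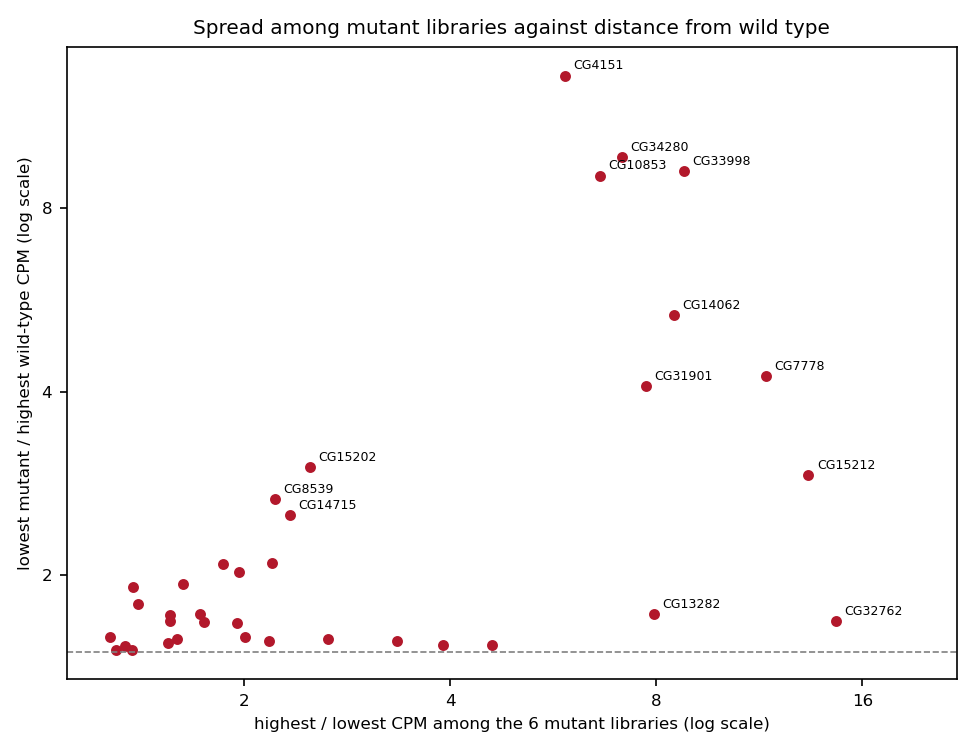
Each point is 1 of the 36 genes, with the highest over the lowest CPM among the 6 mutant libraries on the x axis and the lowest mutant over the highest wild-type CPM on the y axis, both on log scales; the dashed line is the limit of 1.5 in the rule. The 7 genes above a y value of 4 all have an x value above 5, and the 16 genes with an x value under 2 stay at or under 2.09 on the y axis.

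Genes of the wide group had low wild-type levels, with means of 0.698 to 7.98 CPM, whereas those of the steady group were at 9.5 to 68.5 CPM in wild type. In the steady group the mean mutant level was 1.81 to 3.1 times that of wild type. Of the 9 members that match a named gene in the reference gene table, 7 were in the steady group and 1, Mur29B, was in the wide group. The 7 include CG15321, which matches only as a synonym of nej.

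CG12701 is now zld, which encodes Zelda, a zinc-finger factor that opens chromatin when the embryonic genome is first switched on. It was at 60.6 and 48.4 CPM in the deficiency genotype, 66.3 and 49.1 CPM in the 2-deletion genotype and 61.2 and 50.7 CPM in gain of function, against 29.95 and 32.1 CPM in wild type. The highest mutant library was 1.37 times the lowest. CG9809 is srl, the fly member of the PGC-1 coactivator family, which promotes expression of genes for mitochondria. It was at 43.1 and 39.8 CPM in the deficiency genotype, 43.9 and 39.9 CPM in the 2-deletion genotype and 50.6 and 40.7 CPM in gain of function, against 19.6 and 25.1 CPM in wild type. This was the narrowest spread of any member, with the highest mutant library 1.27 times the lowest.

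CG15321 is listed as a synonym of nej, which encodes the histone acetyltransferase CBP, a coactivator of many signalling pathways. The files count CG15321 in a row of its own. That row was at 38.5 and 29.04 CPM in the deficiency genotype, 39.6 and 29.9 CPM in the 2-deletion genotype and 38.4 and 45.2 CPM in gain of function, against 17.3 and 13.97 CPM in wild type. The nej row of the files was at 325 and 293 CPM in the deficiency genotype, 358 and 348 CPM in the 2-deletion genotype and 405 and 330.2 CPM in gain of function, against 324 and 328 CPM in wild type. The mutant and wild-type libraries overlapped for the nej row, while the rule itself bars any overlap for the CG15321 row.

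CG9027 is Sod3, an extracellular superoxide dismutase, and was at 132 ± 2.77 CPM in the deficiency genotype, 119 ± 2.79 CPM in the 2-deletion genotype and 128 ± 26.3 CPM in gain of function, against 68.5 ± 4.09 CPM in wild type (mean ± SD, n = 2 each). CG6672 is ZnT86D, a zinc transporter, and was at 67.5 ± 13.3 CPM in the deficiency genotype, 56.3 ± 4.02 CPM in the 2-deletion genotype and 58.8 ± 12.7 CPM in gain of function, against 29.9 ± 3.16 CPM in wild type (mean ± SD, n = 2 each). CG11459 is CtsL3, a cathepsin L-type cysteine protease, and was at 176 ± 75.5 CPM in the deficiency genotype, 128 ± 16.2 CPM in the 2-deletion genotype and 180.0 ± 17.9 CPM in gain of function, against 55.3 ± 3.21 CPM in wild type (mean ± SD, n = 2 each). The highest mutant library was 1.34 times the lowest for Sod3 and 1.96 times for CtsL3, whose deficiency libraries were at 122 and 229 CPM.

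CG33056 is now Targ2 and was at 22.6 to 29.3 CPM in the mutant libraries, against 14.98 and 6.98 CPM in wild type. CG13897 is now hng3 and was at 49.5 ± 10.7 CPM in the deficiency genotype, 53.99 ± 10.1 CPM in the 2-deletion genotype and 77.3 ± 9.55 CPM in gain of function, against 20.9 ± 7.87 CPM in wild type (mean ± SD, n = 2 each). CG14715, for which the reference table gives the synonym FKBP13, a name used for a prolyl isomerase that helps proteins fold, was at 33.8 and 20.4 CPM in the deficiency genotype, 22.4 and 26.1 CPM in the 2-deletion genotype and 26.1 and 14.5 CPM in gain of function, against 5.76 and 4.19 CPM in wild type. All 3 had wild-type counts of 23 or fewer per library, so their ratios rest on few reads.

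A further 3 members are not protein-coding in the current annotation. CG31044 is a long noncoding RNA and the primary transcript of the microRNAs miR-279 and miR-996, of which miR-279 is known to keep carbon dioxide-sensing neurons out of the fly maxillary palp. It was at 25.6 and 33.3 CPM in the deficiency genotype, 24.98 and 24.6 CPM in the 2-deletion genotype and 39.99 and 26.2 CPM in gain of function, against 12.7 and 12.6 CPM in wild type. The mir-279 row of the files was at 103 and 82.8 CPM in the deficiency genotype, 125 and 76.8 CPM in the 2-deletion genotype and 114 and 197 CPM in gain of function, against 124 and 85.2 CPM in wild type, with mutant and wild-type libraries overlapping. The strand setting is not given, so reads of a host transcript and of a gene inside it cannot be divided with certainty.

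CG31427 and CG32021 are now annotated as pseudogenes. CG31427 was at 30.3 and 49.5 CPM in the deficiency genotype, 14.6 and 10.7 CPM in the 2-deletion genotype and 14.7 and 12.7 CPM in gain of function, against 6.91 and 6.98 CPM in wild type, with both deficiency libraries above all others. CG32021 was at 26.8 and 29.04 CPM in the deficiency genotype, 24.1 and 30.7 CPM in the 2-deletion genotype and 41.6 and 40.7 CPM in gain of function, against 11.5 and 13.97 CPM in wild type, with both gain-of-function libraries on top.

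Of the other members, CG15202 was at 83.9 and 52.7 CPM in the deficiency genotype, 33.6 and 36.1 CPM in the 2-deletion genotype and 53.9 and 70.6 CPM in gain of function, against 6.91 and 11.2 CPM in wild type. CG8539 was at 83.9 and 123 CPM in the deficiency genotype, 77.5 and 55.3 CPM in the 2-deletion genotype and 73.5 and 91.4 CPM in gain of function, against 20.7 and 15.4 CPM in wild type. Their lowest mutant libraries were 3.01 and 2.66 times their wild-type maxima. CG12290 was at 33.8 and 70.99 CPM in the deficiency genotype, 38.8 and 55.3 CPM in the 2-deletion genotype and 34.3 and 74.2 CPM in gain of function, against 16.1 and 4.19 CPM in wild type. CG10570 was at 54.8 and 124 CPM in the deficiency genotype, 37.05 and 86.7 CPM in the 2-deletion genotype and 48.97 and 110.4 CPM in gain of function, against 21.9 and 23.7 CPM in wild type. In both genes the library numbered 2 was the higher in each mutant group. CG9717 was at 27.97 and 82.8 CPM in the deficiency genotype, 72.4 and 60.6 CPM in the 2-deletion genotype and 21.2 and 46.1 CPM in gain of function, against 13.8 and 12.6 CPM in wild type, with its lowest mutant library, the first of gain of function, 1.54 times the wild-type maximum.

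The remaining members are given by their ranges. CG3552 was at 20.4 to 38.00 CPM in the mutant libraries, against 9.22 and 9.78 CPM in wild type. CG14132 was at 65.3 to 91.4 CPM in the mutant libraries, against 33.4 and 36.3 CPM in wild type. CG15628 was at 55.3 to 86.05 CPM in the mutant libraries, against 27.6 and 32.1 CPM in wild type. In each of these 3 the highest mutant library was under 2 times the lowest. CG5399 was at 65.3 to 128 CPM in the mutant libraries, against 24.2 and 39.1 CPM in wild type. CG11883 was at 52.6 to 83.9 CPM in the mutant libraries, against 33.4 and 20.9 CPM in wild type. CG4306 was at 32.7 to 57.1 CPM in the mutant libraries, against 14.98 and 19.6 CPM in wild type. In CG5399 and CG4306 the highest library was one of gain of function. CG10431 was at 22.04 to 30.3 CPM in the mutant libraries, against 11.5 and 11.2 CPM in wild type. CG12105 was at 19.8 to 43.02 CPM in the mutant libraries, against 12.7 and 12.6 CPM in wild type. CG8389 was at 16.3 to 43.3 CPM in the mutant libraries, against 10.4 and 9.78 CPM in wild type. For the last 2 the upper value came from 1 library each, the second of the deficiency genotype for CG12105 and the first of gain of function for CG8389.

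At the limit of the rule, the members just inside were CG12701, CG33056 and CG9027, with ratios of 1.51, 1.51 and 1.53. Just outside were CG32350, CG10069 and CG34349, now named Vps11, MFS16 and stac, with ratios of 1.47, 1.46 and 1.45. CG32350 was at 86.2 to 119 CPM in the mutant libraries, against 49.5 and 58.7 CPM in wild type. CG10069 was at 41.95 to 67.9 CPM in the mutant libraries, against 28.8 and 27.9 CPM in wild type. CG34349 was at 71.8 to 96.8 CPM in the mutant libraries, against 49.5 and 43.3 CPM in wild type. The ratios thus ran on across the limit without a gap.

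Levels can be set side by side between genes only per length of transcript. Per kilobase of exon in the Release 6 annotation, the mutant means were highest for CG10853 with 334 CPM per kb, CG15212 with 323, CG4151 with 264 and CG33998 with 169. The lowest were CG12105 with 5.05 CPM per kb, zld with 5.29 and the miR-279 host transcript with 5.7. In wild type the order differed, with CtsL3 at 39.2 CPM per kb, CG14132 at 38.99 and Sod3 at 33.96 above CG15212 at 15.6, CG10853 at 7.27 and CG4151 at 6.1. CG15321 and CG32021 have no model of their own there and were left out.

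The ratio in the rule set no order among the mutant groups, but its limit on the mean did bear on them. CG31427, CG31901 and CG34280 reached 20 CPM only through their deficiency libraries, with means of 13.2, 15.2 and 18.6 CPM over the other mutant libraries, and CG8389 only through gain of function, with 18.1 CPM over the loss-of-function libraries. These members were bound to be high in those groups, so their differences are given with no test. In the deficiency genotype against the 2-deletion genotype, 26 of the other 33 members had a positive log2 fold, with a median of 0.27, beside medians of 0.01 over all 9252 genes tested and over all CG symbols at the mean CPM. With the 3 included it was 29 of 36. The mean level was highest in the deficiency genotype for 20 of 36 members (55.6%), the 3 among them, beside 32.4% of all CG symbols at the mean CPM. No member passed an adjusted p of 0.05 in edgeR's quasi-likelihood test with Benjamini-Hochberg adjustment, and neither did any other gene (0% of those tested). At an unadjusted p of 0.05, 6 of the 33 members were higher and 0 lower, beside 4.07% and 5.32% of all genes tested.

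The 6 members were CG4151, CG15202, CG33998, CG8539, CG14062 and CG13282, singled out after their values were seen. For CG4151, at 805 and 386 CPM in the deficiency genotype and 137 and 214 CPM in the 2-deletion genotype, the log2 fold was 1.80 (SE 0.41, 95% interval 0.83 to 2.77, edgeR adjusted p = 0.376). For CG33998, at 279.7 and 106 CPM against 31.9 and 62.9 CPM in the 2-deletion genotype, the log2 fold was 2.05 (SE 0.56, interval 0.72 to 3.39, edgeR adjusted p = 0.427). The libraries of both groups did not overlap for either gene. With DESeq2 these 2 genes were called, at adjusted p = 0.01 for CG4151 and adjusted p = 0.0277 for CG33998, among the 0.054% of genes that it called higher.

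CG15202 had a log2 fold of 1.004 (interval 0.33 to 1.68) and CG8539 one of 0.68 (interval 0.10 to 1.26). CG14062 had a log2 fold of 2.16 (interval 0.24 to 4.09) and CG13282 one of 1.65 (interval 0.08 to 3.22), and these 2 rested on single libraries. Without the first deficiency library the log2 fold of CG14062 was 0.76, and without the second that of CG13282 was 0.40. Leaving out the second deficiency library gave adjusted p of 0.0163 for CG4151, 0.0416 for CG33998 and 0.0416 for CG14062 in edgeR, with log2 folds of 2.28, 2.63 and 2.91, where 0.049% of 10205 genes tested were called higher. The deficiency genotype then had 1 library, assumed to vary like the other groups. Without the first deficiency library the log2 folds of CG4151, CG33998 and CG15202 were 1.17, 1.19 and 0.63, and without the second that of CG8539 was 0.43.

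Marker sums differed between these groups as well. Muscle markers summed to 8683 and 13070 CPM in the deficiency genotype and 6384 and 6727 CPM in the 2-deletion genotype. Salivary gland markers, the Sgs genes (5 of 5 found), summed to 27.97 and 38.7 CPM in the deficiency genotype against 4.31 and 14.6 CPM in the 2-deletion genotype. In wild type they summed to 9.22 and 6.98 CPM. These sums rest on few reads: only 1 of the 5 genes could be tested. In the first 2-deletion library, 3 counts corresponded to 2.585 CPM. Stress and immune genes (26 of 26 found, with Hsp22 and Hsp70Aa at 0 in all libraries) summed to 4282 and 5268 CPM in the deficiency genotype against 8282 and 7340 CPM in the 2-deletion genotype. Their part in the members' differences was not tested.

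In loss of function against the libraries labelled gain of function, the members were divided. Leaving CG8389 aside, 20 of 35 log2 folds were positive with a median of 0.03, beside -0.01 over all genes. The 20 include CG32762, CG31427, CG31901 and CG34280, with gain-of-function means of 17.7, 13.7, 12.8 and 18.2 CPM. These met the limit of 20 CPM only through loss of function and were bound to be higher there. The counts in this comparison are therefore a description. No member passed an adjusted p of 0.05 in edgeR or DESeq2, where 0% and 0.0865% of all genes were called. At an unadjusted p of 0.05 in edgeR, 1 member was higher (2.96% of all genes tested) and 2 were lower (2.52% of all genes tested), and in DESeq2 2 were higher (1.65%) and 0 lower (0.875%). The 3 genes in edgeR were hng3, CG32021 and, as the higher 1, CG32762, whose direction was bound by the limit on the mean.

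CG32762 had a log2 fold of 2.57. It was at 227 and 168 CPM in the deficiency genotype and 18.95 and 90.6 CPM in the 2-deletion genotype. In gain of function it was at 15.5 and 19.9 CPM, with a mean of 17.7 CPM, under the limit of 20 CPM. Its direction was thus bound by the choice of members, and the fold is given with no test. The second gain-of-function library, at 19.9 CPM, lay above the lowest loss-of-function library, at 18.95 CPM, so the groups overlapped. CG13897, now hng3, was lower in loss of function, at 57.1 and 41.9 CPM and 61.2 and 46.8 CPM in the 2 genotypes against 84.1 and 70.6 CPM in gain of function, with a log2 fold of -0.57 (interval -1.09 to -0.06, edgeR adjusted p = 0.883). CG32021 had a log2 fold of -0.56 (interval -1.11 to -0.01, edgeR adjusted p = 0.894), and its 4 loss-of-function libraries, at 24.1 to 30.7 CPM, were all below both gain-of-function libraries.

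A p that misses the threshold does not show that groups were alike, and the intervals say how large a difference could still be. For zld the log2 fold of loss against gain was 0.01 with an interval of -0.48 to 0.50, and for srl it was -0.12 with an interval of -0.63 to 0.38. For Sod3 it was -0.02 with an interval of -0.40 to 0.36. Differences of 1 on the log2 scale lay outside the intervals of these 3 genes. For CG15212, whose replicates disagreed, the interval ran from -2.72 to 2.63, and for CG7778 from -0.65 to 2.80.

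**Figure D4:**
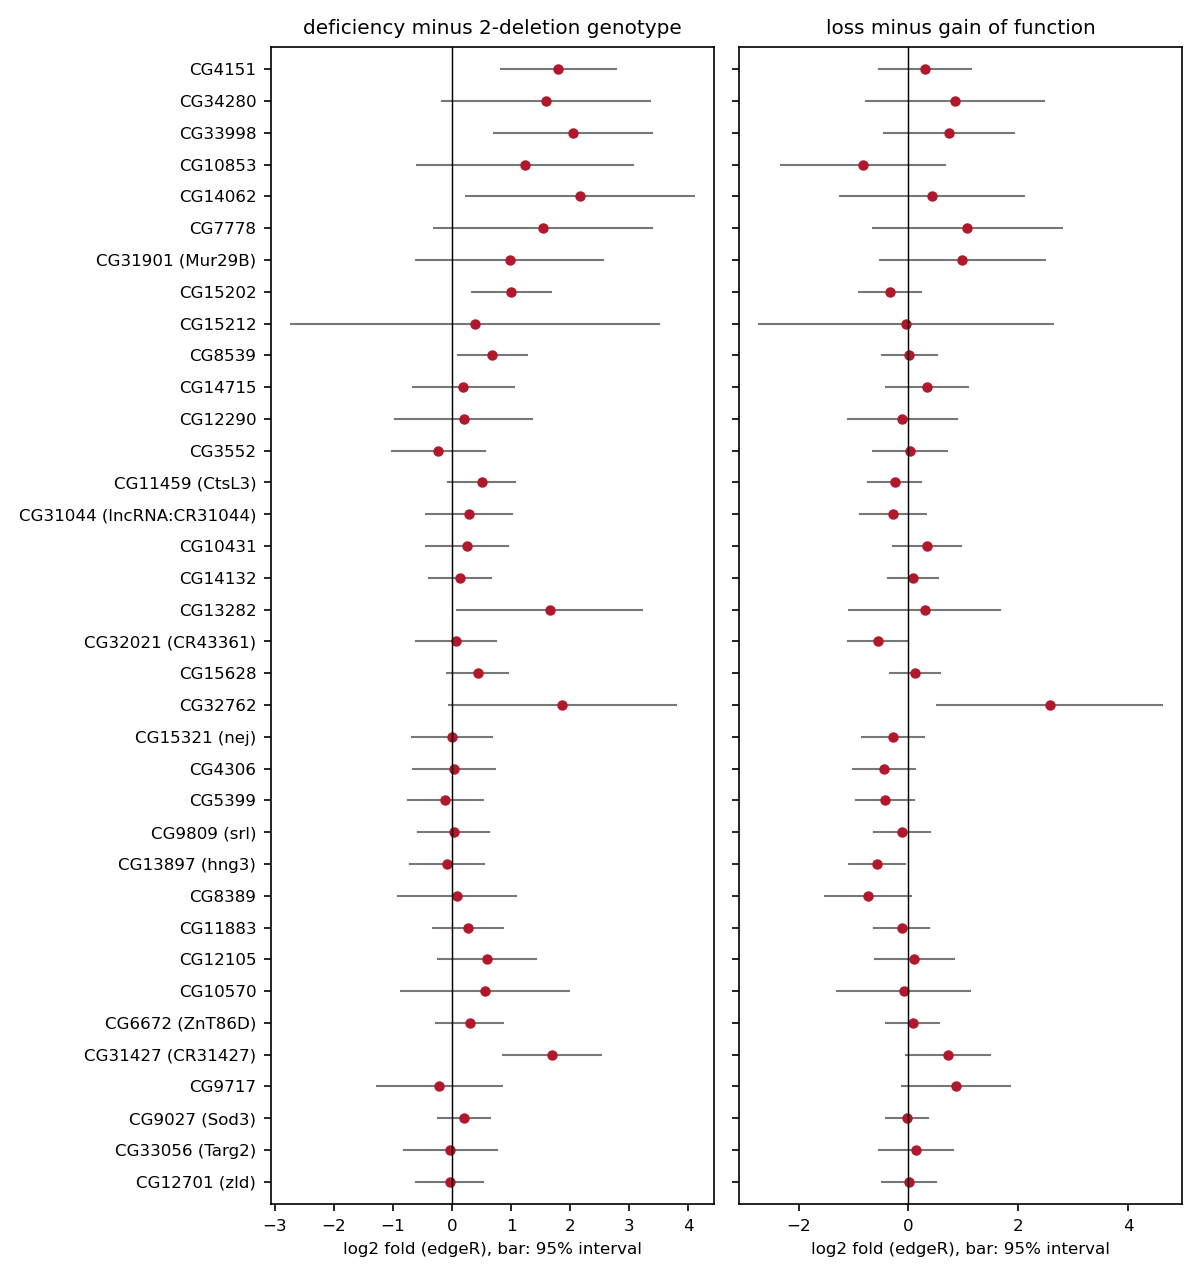
Log2 folds of the 36 genes between mutant groups from the edgeR fit, with 95% intervals as bars; the left panel sets the deficiency genotype against the 2-deletion genotype and the right panel sets loss against gain of function. In the left panel 29 of 36 points lie right of 0, including CG31427, CG31901 and CG34280, which met the rule only through the deficiency genotype. In the right panel 20 do, including these genes and CG32762, which met the limit on the mean only through loss of function. The longest interval in both panels is that of CG15212.

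Some members also differed between replicates of a group. In 4 members, CG7778, CG31901, CG13282 and CG10570, the library numbered 2 was over 1.5 times the library numbered 1 in all 3 mutant groups, or 11.1% of the members beside 1.3% of all CG symbols at the mean CPM. In 0 members was the library numbered 1 the higher by that much in all 3 groups, beside 0.341% of all CG symbols. Fat body marker sums followed the same order, at 25675 and 37756 CPM in the deficiency genotype, 21304 and 23809 CPM in the 2-deletion genotype and 22059 and 33322 CPM in gain of function. So did the gut markers, at 34.96 and 52.7 CPM in the deficiency genotype, 6.89 and 37.6 CPM in the 2-deletion genotype and 9.79 and 40.7 CPM in gain of function. These sums were 17613 and 15258 CPM for fat body and 3.46 and 6.98 CPM for gut in wild type. The order was not particular to these lists. Sums for photoreceptors, glia, muscle, salivary gland, trachea and ecdysone-response genes followed it too. The sum of the testis list did as well, but it counts svp, matched by synonym in place of the listed gene don. Photoreceptor markers were at 420 and 925 CPM in the deficiency genotype, 333 and 363 CPM in the 2-deletion genotype and 220 and 321 CPM in gain of function. Sums for neurons, hemocytes and stress and immune genes did not follow it. The part of these sums in the members' values was not tested, and the pattern was noticed after the values were seen.

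Features that the rule did not use were compared with all CG symbols at the mean CPM, as a description. All 36 members matched a gene in the reference table, and 32 are protein-coding with a model of their own. Their proteins had a median length of 340 amino acids, from 63 for CG15212 to 1596 for zld, beside a median of 548 over 2741 such CG genes. Of the 32, 9 (28.1%) were under 200 amino acids, beside 10.7% of all. In the wide group 5 of 10 were that short, namely CG4151, CG34280, CG33998, CG10853 and CG15212, and in the steady group 1 of 13.

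In the reference table, 9 of the 36 members (25.0%) match a gene that now has a name, beside 45.4% of the CG symbols at the mean CPM. The 9 include CG15321, which matches only as a synonym of nej and received no name itself. By chromosome arm, 5 members lie on X, 6 on 2L, 4 on 2R, 9 on 3L, 11 on 3R and 1 on the small chromosome 4. Arm 2R, which carries the Df(2R)106 deletion by its name, held 11.1% of the members and 18.6% of all CG symbols at the mean CPM. Exons of 12 members (33.3%) overlap an exon of another gene, beside 35.0% of all, and their counts may include reads of the other gene. They are CG33998, CG34280, CG31044, CG14715, CG12290, CG32021, CG3552, CG10431, CG13282, CG8389, CG10570 and Targ2. For CG32021 the overlap is that of the pseudogene model it matched.

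Genes next to the members were looked at after the members' values were seen. A CG-number neighbour that met the rule is itself a member and is left out, so the rule held down the count of higher neighbours and the counts are a description. The members with a model of their own had 51 neighbours that were no members and had a row in the files. Of these, 31 could be tested. In loss of function against wild type, 0 of these 31 were called higher and 0 lower by edgeR at an adjusted p of 0.05, beside 0.616% and 1.58% of all genes, and 1 was higher and 4 lower at an unadjusted p of 0.05, beside 8.11% and 11.8%. In gain of function against wild type, 1 was called higher and 0 lower, beside 0.919% and 2.19% of all genes. With 1 wild-type library left out, at most 7 of all genes were called higher in either comparison, against 57 in loss and 85 in gain of function with both. The called neighbour was CG15213, next to CG15212, with a log2 fold of 1.94 (edgeR adjusted p = 0.0294) in gain of function and 0.76 (adjusted p = 0.32) in loss of function. CG7627, on the other side of Mur29B from CG7778, had log2 folds of 0.845 in loss (edgeR adjusted p = 0.0944) and 1.04 in gain of function (adjusted p = 0.0653). The median log2 fold of the neighbours was -0.21 in loss and -0.08 in gain of function, beside 0.00 and 0.01 over all genes. Both comparisons share the wild-type libraries.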

How the data were processed

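RNA of 8 libraries was measured as read counts per gene symbol, which the authors deposited as raw whole-number counts, 1 file per library. Per the submitters' processing notes they come from HTSeq and the dm3 build. Aligner, strand setting, versions and annotation were not given in the sources used here. Overlapping genes and near-identical copies are therefore uncertain. No summary line was present. Groups and replicate numbers were taken from the titles.

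CPM are counts per 1000000 of the library total. The members and lists were chosen with earlier results of these data known. Between mutant groups, edgeR 4.0.16 (R 4.3.3, limma 3.58.1, statmod 1.5.0) was run on 9252 genes kept by filterByExpr (minimum count 10, minimum total 15), with TMM scaling, 4 group means over all 8 libraries, a robust quasi-likelihood test and Benjamini-Hochberg adjustment over all genes tested; 4 residual degrees of freedom remained. Intervals are the fold ± the t quantile times the standard error. DESeq2 1.42.0 and limma-voom were alternatives. The script was tested on simulated counts. All 36 members passed the filter.

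Genes named are the 10 highest and the 10 with the largest ratio, those at the limit, those next to another member and those that now have a name; others are values of further members. Current names, gene order, strand and exon lengths come from Release 6 (RefSeq and Ensembl), to which 94.9% of symbols matched; it is a later build than the files use, so no coordinates are given. Protein and promoter sequences were not used here.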

Additional observations from a re-analysis of the deposited data

Results flagged for a closer look

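In 5 of the 36 members, 1 of the 4 loss-of-function libraries lay far from the other 3, by its gap to the nearest of them relative to the whole range. This was 13.9% of the members, beside 4.64% of all CG symbols at the mean CPM and about 1 in 20 groups by chance. The chance figure takes the 4 libraries as 1 group, though they are of 2 genotypes. CG34280 was at 96.7 CPM in the first deficiency library and at 16.1, 18.1 and 19.96 CPM in the other 3. This gene met the limit on the mean only through the deficiency genotype and was lost from the rule without that library. Its flag was thus favoured by the choice of members, and it is counted in the 13.9%. CG14062 was at 190.0 CPM in the same library and at 22.4, 30.7 and 44.1 CPM in the others. In the second deficiency library, CG31044, the host transcript of miR-279, was at 33.3 CPM, against 24.6, 25.0 and 25.6 CPM, and CG12105 was at 43.02 CPM, against 19.8, 21.5 and 21.5 CPM. CG10431 was at 22.3 CPM in the second 2-deletion library, against 30.1 to 30.3 CPM in the others; its counts were 29 in that library and 26, 28 and 35 in the others.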

How the results depend on the processing

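The number of members depends on the limits of the rule. A ratio of 2 gave 14 genes and a lower ratio 85, a mean of 10 CPM gave 61 and a mean of 50 CPM 21. Scaling by TMM or DESeq2 size factors gave 37 genes each, with all 36 members kept, and library totals without small RNA genes gave 42, with CG12701 lost. Leaving out 1 library gave 38 to 112 genes, and the highest counts, 112 and 107, came without wild-type replicate 1 and 2. Without deficiency replicate 1 CG34280 was lost, without deficiency replicate 2 CG31427 and CG31901, and without gain-of-function replicate 1 CG8389. No member was called in loss minus gain of function under any alternative run. In deficiency minus 2-deletion, DESeq2 called 2 members, and the counts with 1 library left out were 0 to 3, the 3 being without deficiency replicate 2; all other alternatives gave 0. With a minimum count of 50, 21 members could be tested. Of the 10 log2 folds followed under 147 alternatives, all but 5 kept their direction and side of the threshold, 5 passed it (CG4151 and CG33998 in DESeq2 and, with CG14062, without deficiency replicate 2), and 0 reversed. The 10 include CG31427 in deficiency minus 2-deletion and CG32762 in loss minus gain of function, whose directions were bound by the limit on the mean. Replicate numbers were not taken to pair the samples, since deviations correlated over 0.1 in only some pairs of groups, at 0.0773, 0.172 and 0.131 among mutant groups and at -0.0413 to -0.0245 with wild type. Whether mutant libraries of the same number share something is unsettled. With the replicate number as a block 0 members were called in either comparison. At an unadjusted p of 0.05, with all 36 members counted, 10 instead of 7 were higher in deficiency minus 2-deletion and 0 were lower. Of all 9252 genes tested, 428 were higher and 503 lower. In loss minus gain of function 4 members were higher and 3 lower instead of 1 and 2, beside 316 and 238 of all genes. All 36 include CG31427, CG31901, CG34280 and CG8389, which met the mean only through 1 group. They also include CG32762, which met it only through loss of function, so these counts are a description. Leaving out members that met the mean only through 1 group of the comparison, an alternative chosen after seeing the data, gave 0 called in both. In loss minus gain of function this left out only CG8389. It kept CG32762, CG31427, CG31901 and CG34280, which met the mean only through loss of function. Over all genes, calls higher than wild type numbered 57 in loss and 85 in gain of function, 4 and 7 without wild-type replicate 1, 4 and 3 without wild-type replicate 2, and 199 and 126 without gain-of-function replicate 1. With 1 to 13 wild-type counts in all over both libraries in the 10 wide members, depth limits the ratios to wild type.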

Other observations

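Ecdysone-response genes, a list chosen with earlier results of these data known, summed to 6402 to 6809 CPM in the mutant libraries, against 5885 and 5634 CPM in wild type. In loss of function against wild type 1 of 26 was called higher and 0 lower by edgeR, and in gain of function 3 higher and 0 lower, with median log2 folds of 0.27 and 0.19. Cyp18a1, whose enzyme inactivates ecdysteroids, was called in both, with log2 folds of 1.45 (edgeR adjusted p = 0.0322) and 1.66 (edgeR adjusted p = 0.0204). Eip93F, an ecdysone-induced transcription factor of late metamorphosis, and Edg91 were called in gain of function, with log2 folds of 0.84 and 1.98. Of the 14 stress and immune genes tested, 0 were called in loss of function (5 higher and 1 lower at an unadjusted p of 0.05 in edgeR). In gain of function 2 were called higher, the antibacterial peptide gene Dpt with a log2 fold of 2.02 and the small heat shock gene Hsp67Bc with 0.88. Over all genes, 0.616% were called higher in loss and 0.919% in gain of function, or 57 and 85 genes. Without wild-type replicate 1 these were 4 and 7, and without wild-type replicate 2 they were 4 and 3. Both comparisons use the same wild-type libraries.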
